A study of Mus musculus with 8 samples.

Results

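The 6 conventional actin genes of the mouse, Actc1, Acta1, Acta2, Actg2, Actb and Actg1, were followed through RNA sequencing of adult hearts. They were chosen as a gene family and found by symbol, and all 6 were present among the 49315 genes of the count table. The hearts were those of adult C57BL/6 mice, a standard inbred strain, at an age of 8 weeks, with 4 libraries from males and 4 from females. The labels name no treatment or added allele in either group, and do not say whether the libraries of a sex are from different animals or from which chambers. P-values therefore measure the spread between these libraries, which may be technical. The series compares the transcriptome of the male heart with that of the female heart.

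Total counts per library lay between 39612848 and 47097765 in males and between 32746054 and 35467832 in females, so depth and sex moved together. Levels are given as CPM, the count scaled to library size and composition, and means carry their SD over 4 libraries. Cardiomyocyte markers were high in all libraries, with 12 genes summing to 104412 to 115431 CPM in males and 110970 to 112834 CPM in females. Libraries differed in other cells. Male replicate 4 had 89.5 CPM of the atrial light chain gene Myl7, against 380 to 464 CPM in the other males and 485 to 493 CPM in females. Male replicate 1 had 18.6 CPM of the leukocyte gene Ptprc, against 7.15 to 11.5 CPM in the other males and 6.97 to 12.2 CPM in females. Female replicate 3 had 19.8 CPM of the airway gene Scgb1a1, against at most 0.837 CPM in every other library. The red cell gene Hba-a1 ran from 153 CPM in female replicate 2 to 2186 CPM in female replicate 4, and from 613 to 1943 CPM in males. All 8 adipocyte markers were lower in males, with summed levels of 13.2 to 40.0 CPM in males and 87.1 to 214 CPM in females. The part of these differences in the results below was not tested, except where values without a library are given.

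Actin monomers assemble into thin filaments, which myosin pulls on in muscle and which shape and move every other cell. Cardiac alpha-actin (Actc1) and skeletal alpha-actin (Acta1) build the thin filament of the sarcomere. The adult heart uses mainly the cardiac form, and in rodents the skeletal form is more prominent in the fetal heart and returns under load. Acta2 encodes the alpha-actin of vascular smooth muscle, which also marks pericytes and myofibroblasts. Actg2 encodes the gamma-actin of visceral smooth muscle. Actb and Actg1 encode the cytoplasmic beta- and gamma-actins of nearly all cells.

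The coding sequences show how close the family is, which bears on how reads can be assigned. Below are the first 60 coding bases of each gene from the GENCODE M21 transcripts of GRCm38, beginning at the start codon, with capitals for bases that differ from Actc1 in an alignment of the whole coding sequences.
Actc1 (chromosome 2): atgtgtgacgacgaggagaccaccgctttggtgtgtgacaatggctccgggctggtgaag
Acta1 (chromosome 8): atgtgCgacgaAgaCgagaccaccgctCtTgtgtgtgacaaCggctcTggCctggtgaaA
Acta2 (chromosome 19): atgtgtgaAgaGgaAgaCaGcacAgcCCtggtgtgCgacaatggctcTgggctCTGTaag
Actg2 (chromosome 6): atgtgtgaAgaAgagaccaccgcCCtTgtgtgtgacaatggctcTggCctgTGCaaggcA
Actb (chromosome 5): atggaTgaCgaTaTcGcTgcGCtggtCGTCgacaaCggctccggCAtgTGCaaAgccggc
Actg1 (chromosome 11): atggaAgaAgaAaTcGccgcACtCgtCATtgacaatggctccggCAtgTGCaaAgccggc
In this stretch 9 bases differed from Actc1 in Acta1, 14 in Acta2, 11 in Actg2, 19 in Actb and 17 in Actg1. The coding sequences hold 377 codons in Actc1, Acta1 and Acta2, 376 in Actg2 and 375 in Actb and Actg1, without the stop codon. Over the whole coding sequence the closest pairs were Actb and Actg1, identical at 88.7% of aligned bases, and Actc1 and Acta1 at 86.2%. The most distant were Actc1 and Acta2 against Actg1, at 81.9% each.

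Exact matches over 50 or 100 bases were rare between the 6 genes and frequent between Actg1 and other annotated transcripts. Those of Actb with other transcripts depended on the window. No 50-base window of the Actc1 or Actg2 transcript occurred in another gene's transcript. In Acta1, 2.2% of such windows did, in Acta2 0.4%, in Actb 14.2% and in Actg1 56.7%. With windows of 100 bases, the share was 51.1% for Actg1, 1.1% for Actb and 0.0% for the other 4 genes. The matches of Actg1 were mainly to processed pseudogenes, among them Gm12715, Gm8399 and Actg-ps1. The 13 pseudogenes with such a match in the count table summed to 363 counts over the 8 libraries, beside 54557 for Actg1 and 103772 for Actb. Most matches of Actb were to the protein-coding gene Lrrc58, which shared 179 windows and held 10151 counts. How reads with several matches were counted is not stated, so the levels of Actg1 and, to a smaller degree, Actb are uncertain.

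Serum response factor drives many muscle actin genes through the CArG box. Of the 250 bases upstream of the RefSeq start (GRCm38.p6), a window was held for Actc1, Acta1, Acta2 and Actg1, and the consensus CArG box was found in Actc1, Acta1 and Actg1. The box reads the same on both strands, and 1.47% of 32851 promoter windows of that length held it. Acta2 held none, but 2 boxes with 1 central base other than A or T. Actc1 held 3 and Acta1 2 boxes of that form besides the consensus, and 8.59% of windows held a box of either kind. The consensus boxes and those of Acta2 are shown with 10 bases on each side and the box in capitals, read on the minus strand that carries all 4 genes.
Actc1, chr2:114052903-114052932: gctaaggcgaCCAAATAAGGcaaggtggca
Acta1, chr8:123894829-123894858: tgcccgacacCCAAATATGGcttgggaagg
Acta2, chr19:34255438-34255467: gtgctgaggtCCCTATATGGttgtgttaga
Acta2, chr19:34255388-34255417: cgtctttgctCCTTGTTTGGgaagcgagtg
Actg1, chr11:120348566-120348595: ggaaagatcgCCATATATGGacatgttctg
Both Acta2 windows lie within an exon of an Acta2 transcript in GENCODE M21. The Actc1 window lies within the span of the counted Actc1 gene, which runs to base 114053548. The match describes these letters only, and binding was not measured.

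Cardiac alpha-actin made up most of the actin RNA in every library. The 6 genes together took 0.959% to 1.14% of all counts in males and 0.993% to 1.14% in females. Per length, as CPM per kilobase of the summed exons, Actc1 lay at 5801 ± 501 in males and 5808 ± 420 in females (SD, n = 4 each). Acta1 followed at 331 ± 62.9 in males and 205 ± 41.6 in females, 16.01 to 34.82-fold below Actc1 within single libraries. Actb came next at 128 ± 17.8 in males and 123 ± 1.18 in females, then Acta2 at 67.8 ± 9.93 in males and 88.6 ± 3.56 in females, and Actg1 at 64.3 ± 4.24 in males and 69.4 ± 4.48 in females. Actg2 was lowest by far, at 0.650 ± 0.0607 in males and 0.694 ± 0.250 in females. With these deposited exon lengths the order was the same in 7 of 8 libraries. In male replicate 1, Actg1 (70.2) exceeded Acta2 (54.3), and these neighbours overlapped in range, whereas the other 4 neighbouring pairs did not overlap. The exons of Actb and Actg1 sum to 2679 and 2658 bases, retained introns included, while their longest protein-coding transcripts in GENCODE M21 hold 1920 and 1952. For Acta2 the exons sum to 1781 bases and the longest such transcript holds 2035. That transcript has an exon up to base 34255590, beyond the counted gene, which ends at 34255336. Its length thus includes bases that were not counted, which lowers Acta2. With the lengths of these transcripts in place of the exon sums, Acta2 and Actg1 changed places. Actg1 was above Acta2 in all 8 libraries, by 1.11 to 2.01-fold, a comparison added after the values were seen. Acta1 was then above Actb in 7 of 8 libraries and below it in female replicate 2. The places of Acta2 and Actg1 thus depend on the length used, while Actc1 first and Actg2 last held with both.

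**Figure D1:**
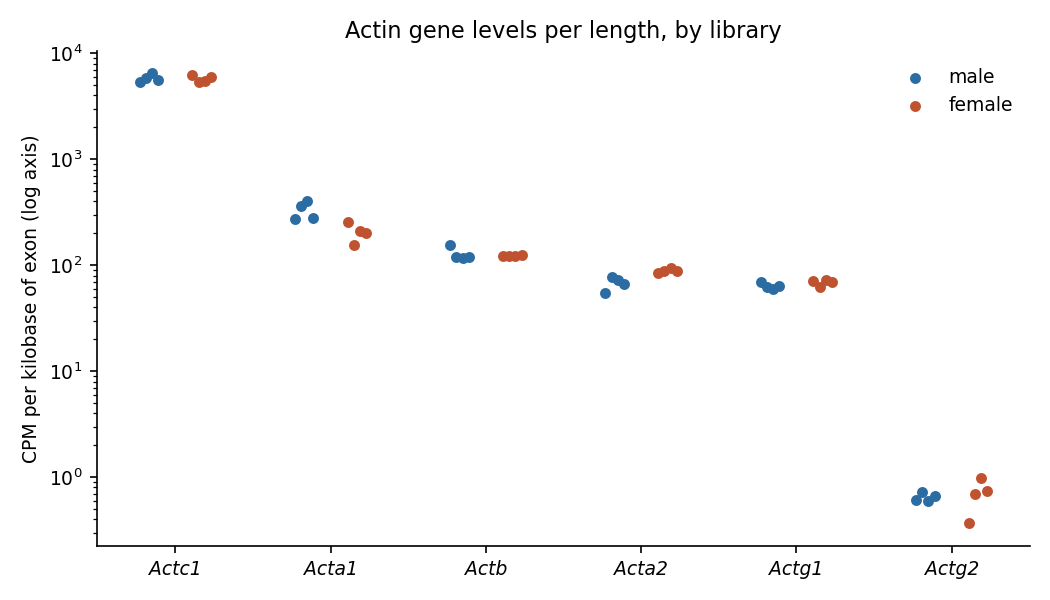
Levels of the 6 actin genes as CPM per kilobase of exon (log axis), 1 point per library, with males left and females right for each gene. Actc1 lay at or above 5331 in all 8 libraries and Actg2 at or below 0.974.

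Acta1 was higher and Acta2 lower in males, and the other 4 actins were not called. In all, 2 of the 6 genes passed the threshold (edgeR's quasi-likelihood F-test, where the Benjamini-Hochberg adjustment spanned 16180 genes and the threshold was 0.05), 1 in each direction, beside 3.79% of all genes tested, 2.03% higher and 1.76% lower in males. The median log2 fold change of the 6 was -0.05, male minus female, and that of all genes tested -0.00074. For 2 of the 6 genes the libraries of the sexes were fully separated, 1 in each direction, beside 12% of all genes tested, 6.39% with males higher and 5.66% with males lower. All 6 passed the filter on low counts, with 19 to 55 counts per library for Actg2 and at least 3984 for each of the others.

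Acta1, the skeletal alpha-actin gene (chromosome 8, 123891769 to 123894751, minus strand), stood at 421, 559, 618 and 432 CPM in male replicates 1 to 4, against 395, 239, 320 and 307 CPM in female replicates 1 to 4. Every male library lay above every female one, with the nearest values in male replicate 1 and female replicate 1. The level was 508 ± 96.7 CPM in males and 315 ± 63.8 CPM in females (SD, n = 4 each), 1.61-fold higher in males (log2 fold change 0.69, SE 0.15, 95% interval 0.36 to 1.01, edgeR adjusted p = 0.0284). The spread within a sex was wide, at 19.0% of the mean in males and 20.2% in females. The fold change stayed positive in all 8 fits with 1 library left out, between 0.57 and 0.81. The call held in 3 of these and was lost without male replicates 2 (adjusted p = 0.0702) and 3 (0.0755) and without female replicates 2 (0.060), 3 (0.0679) and 4 (0.0693), each from edgeR. An alternative chosen after seeing the data left out male replicates 1 and 4 together, the lowest males for Acta1. The log2 fold change was then 0.90 (edgeR adjusted p = 0.011), a rise that follows from leaving out the lowest males.

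Actc1, the cardiac alpha-actin gene (chromosome 2, 114047282 to 114053548), was at 8625, 9433, 10496 and 8989 CPM in males, against 10165, 8770, 8885 and 9772 CPM in females. The values of the sexes were interleaved, and the highest library was male replicate 3 and the lowest male replicate 1. The means were 9386 ± 811 CPM in males and 9398 ± 680 CPM in females (log2 fold change -0.0019, SE 0.06, edgeR adjusted p = 0.99). The 95% interval of the difference ran from -0.14 to 0.14. Its spread within a sex, 8.64% of the mean in males and 7.23% in females, was less than that of Acta1.

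Acta2, the vascular smooth muscle alpha-actin gene (chromosome 19, 34241090 to 34255336), stood at 96.7, 138, 129 and 119 CPM in males, against 152, 157, 167 and 156 CPM in females. All 4 males lay below all 4 females, and male replicate 1 was the lowest. The level was 121 ± 17.7 CPM in males and 158 ± 6.35 CPM in females, 1.31-fold higher in females (log2 fold change -0.39, SE 0.09, 95% interval -0.58 to -0.20, edgeR adjusted p = 0.0317). The fold change was negative in all 8 fits with 1 library left out, between -0.46 and -0.29, and without male replicate 1 it was -0.29 (edgeR adjusted p = 0.016). The call held in 2 of these fits. It was lost without male replicates 3 (adjusted p = 0.0533) and 4 (0.0662) and without female replicates 1 (0.0594), 2 (0.0689), 3 (0.0826) and 4 (0.0633), each from edgeR. In a bulk heart, fewer cells of a type and less RNA per cell cannot be told apart.

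Actg2, the visceral smooth muscle gamma-actin gene (chromosome 6, 83512905 to 83536265), was near 1 CPM in either sex. It stood at 0.946, 1.14, 0.938 and 1.03 CPM in males, against 0.574, 1.07, 1.52 and 1.16 CPM in females. The female values were wider and enclosed the male ones (log2 fold change -0.10, SE 0.24, edgeR adjusted p = 0.865). Counts were 39 to 47 per male library and 19 to 55 per female library. The 95% interval of the difference ran from -0.63 to 0.43, so differences of that size in either direction were not excluded.

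Actb, the cytoplasmic beta-actin gene (chromosome 5, 142903115 to 142906754), was at 413, 323, 312 and 321 CPM in males, against 330, 330, 327 and 335 CPM in females. The females lay within a narrow band, and male replicate 1 stood above all other libraries while the other 3 males lay below all females. The means were 342 ± 47.6 CPM in males and 330 ± 3.17 CPM in females (log2 fold change 0.05, SE 0.08, 95% interval -0.12 to 0.22, edgeR adjusted p = 0.77). Without male replicate 1 the log2 fold change was -0.05 (edgeR adjusted p = 0.52). That library was also high in several leukocyte genes. Lcp1, which encodes the leukocyte actin bundling protein L-plastin, was at 67.6 CPM there, against 21.5 to 27.1 CPM in the other males and 24.1 to 29.7 CPM in females. Lcp1 was picked for its likeness to Actb over the libraries, so its value there is no independent evidence. Male replicate 1 held 62.8 CPM of the macrophage gene Adgre1, against 11.3 to 13.9 CPM in the other males and 10.9 to 13.3 CPM in females. Csf1r was at 73.6 CPM there, against 59.1 to 62.1 CPM in the other males. Cd74 was not highest there, at 166 CPM, against 185 CPM in male replicate 2. The summed level of the 10 leukocyte markers ran from 381 to 673 CPM in males and from 339 to 400 CPM in females, and none of the 10 was at 0.

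Actg1, the cytoplasmic gamma-actin gene (chromosome 11, 120345690 to 120348542), was at 186, 167, 160 and 170 CPM in males, against 190, 167, 194 and 186 CPM in females. The sexes overlapped, with a slightly lower mean in males, 171 ± 11.3 CPM in males against 184 ± 11.9 CPM in females (log2 fold change -0.11, SE 0.06, 95% interval -0.23 to 0.01, edgeR adjusted p = 0.32).

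**Figure D2:**
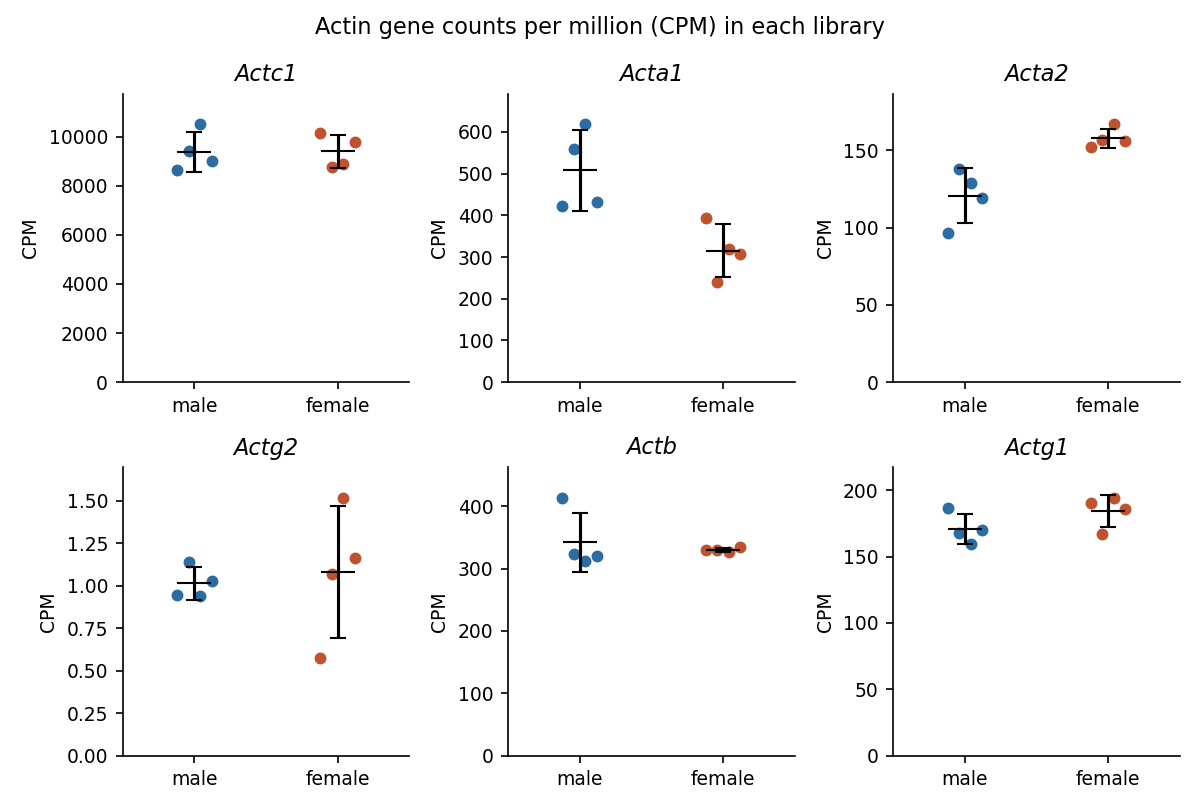
CPM of each actin gene by library, males left and females right, with points for the 4 libraries of a sex and a bar with whiskers for mean and SD. The sexes do not overlap for Acta1 (421 to 618 CPM in males, 239 to 395 CPM in females) and for Acta2 (96.7 to 138 CPM in males, 152 to 167 CPM in females), and a single male library of 413 CPM stands above the rest for Actb.

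**Figure D3:**
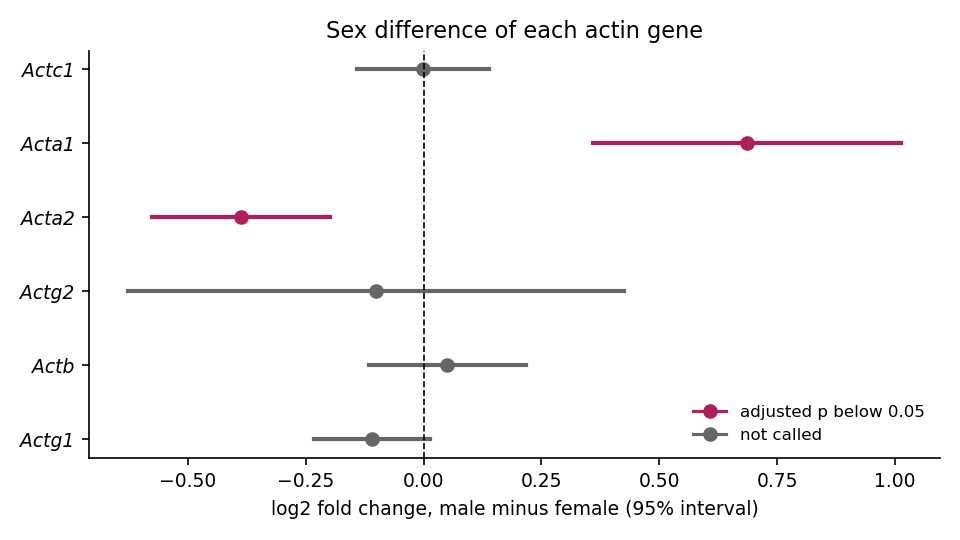
Log2 fold change, male minus female, of each actin gene with its 95% interval from the edgeR fit. The intervals of Acta1 (0.36 to 1.01) and Acta2 (-0.58 to -0.20) lie on either side of 0, and those of the other 4 genes include it.

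The makeup of the actin pool was also compared within each library, which does not depend on library scaling. Of the summed level per length, Actc1 held 90.8% ± 0.402 in males and 92.3% ± 0.453 in females (SD, n = 4 each). Acta1 held 4.66%, 5.64%, 5.64% and 4.62% in male libraries, against 3.77%, 2.66%, 3.48% and 3.07% in female libraries. Acta2 held 0.923%, 1.20%, 1.01% and 1.10% in male libraries, against 1.2504%, 1.504%, 1.563% and 1.341% in female libraries. For these 3 genes the shares of the sexes did not overlap, with Actc1 and Acta2 lower and Acta1 higher in males. In each, the exact two-sided permutation test gave p = 0.029, the smallest that 4 against 4 allows, and the adjusted p over the 6 shares was 0.057, which missed the threshold. The shares of Actb (2.02% ± 0.424 in males, 1.97% ± 0.131 in females), Actg1 (1.02% ± 0.146 in males, 1.10% ± 0.0778 in females) and Actg2 (0.0102% ± 0.00127 in males, 0.0112% ± 0.00445 in females) overlapped, with exact permutation p of 0.89, 0.34 and 0.66. Shares sum to 100%, so a gain of 1 gene lowers the others. They rest on the counts in which Acta1 and Acta2 were already separated between the sexes, and are no independent evidence.

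**Figure D4:**
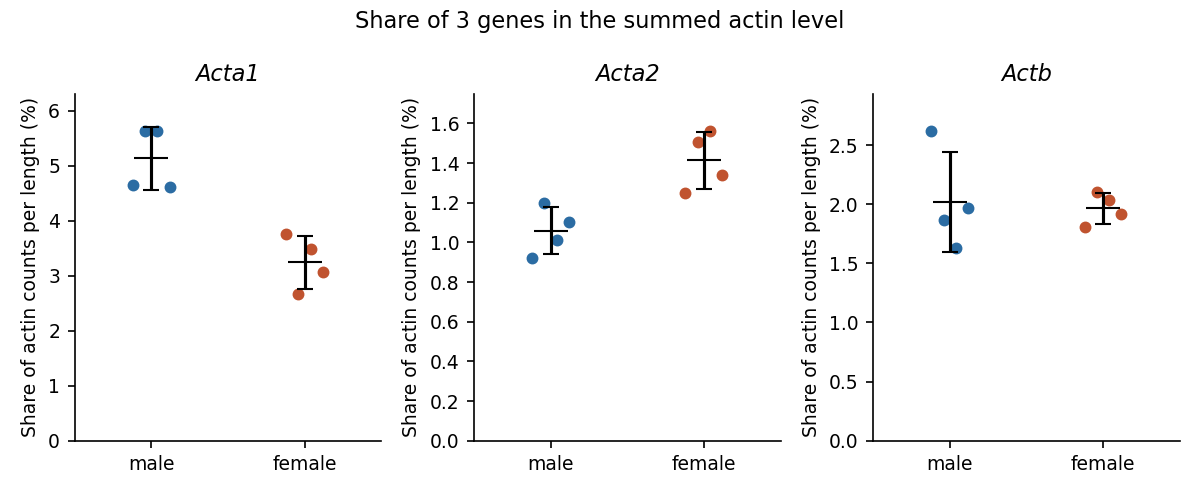
Share of Acta1, Acta2 and Actb in the summed actin level per length, in percent, males left and females right, with points for libraries and a bar with whiskers for mean and SD. Acta1 takes 4.62% to 5.64% in males and 2.66% to 3.77% in females, and for Actb male replicate 1 stands above the other libraries at 2.62%.

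Ratios between the actins ran in the same directions. They rest on the same counts as the fold changes and shares, so they are no independent evidence. As Actc1 was alike in the sexes, the ratio of Acta1 to Actc1 restates the difference of Acta1. The log2 ratio of Acta1 to Actc1, the pair of sarcomeric actins, was -4.15 ± 0.166 in males and -4.84 ± 0.225 in females (SD, n = 4 each), a difference of 0.69 with no overlap. The smooth muscle actins Acta2 and Actg2 over the sarcomeric ones gave -6.49 ± 0.158 in males and -6.07 ± 0.157 in females, a difference of -0.42 with no overlap. Both had an exact two-sided permutation p of 0.029 and an adjusted p over the 5 ratios of 0.071. The ratio of Actb to Actg1 was 0.98 ± 0.105 in males and 0.83 ± 0.0981 in females (exact permutation p = 0.11, adjusted p = 0.19). The cytoplasmic over the sarcomeric actins (-4.999 ± 0.268 in males, -4.96 ± 0.0911 in females, exact permutation p = 0.83) and Actg2 over Acta2 (-6.69 ± 0.176 in males, -7.08 ± 0.545 in females, exact permutation p = 0.23) overlapped between the sexes.

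Within the sexes, Actc1 and Acta1 moved together from library to library, with a Pearson r of 0.854 over the 8 libraries after the mean of each sex was subtracted. Acta2 and Actb moved in opposite directions (r = -0.892), and male replicate 1 was the lowest library for Acta2 and the highest for Actb. These values are descriptions, since the libraries also share depth and scaling. By the same measure the most similar genes, among 7183 whose log2 CPM averaged 4 or more (7184 for Actg2), were Lynx1 (0.981) and Fbxw5 (0.977) for Actc1, Aamdc (0.987) and Fkbp4 (0.976) for Acta1, and Mvb12b (0.966) for Acta2. For Actb they were Cap1 (0.99), whose protein recycles actin monomers, and Lcp1 (0.985), for Actg1 P2rx4 (0.951) and Ctso (0.947), and for Actg2 Fbxo28 and Fam120b (0.976 each), the last with few counts behind it. None of these 11 genes was called between the sexes (edgeR adjusted p from 0.13 to 0.98). As the highest of all genes searched, their r values are high by selection. Male replicate 1 stood apart in Cap1 (68.5 CPM, against 53.3 to 58.1 CPM in the other libraries) and Lcp1, as it did in Actb. The r values without that library were not computed.

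Of 7 other genes active in the fetal or stressed cardiomyocyte, 1 was higher in males and 1 lower. Ankrd1, a stretch-responsive ankyrin repeat gene, was higher in males (758 ± 84.4 CPM in males, 518 ± 55.3 CPM in females, log2 fold change 0.55, edgeR adjusted p = 0.0074) and held its call in 8 of 8 fits with 1 library left out. Xirp1, which encodes an actin-binding repeat protein of intercalated discs, was lower in males (276 ± 5.11 CPM in males, 309 ± 10.3 CPM in females, log2 fold change -0.16, edgeR adjusted p = 0.0325), a call that held in 2 of 8 such fits. The beta myosin heavy chain gene Myh7 (-0.17), the natriuretic peptide genes Nppa (-0.39) and Nppb (-0.13) and the atrial light chain genes Myl4 (-0.38) and Myl7 (-0.50) had negative log2 fold changes and were not called. Ratios within libraries were added after the values were seen, when Acta1 was already known to be separated between the sexes, so they describe its size beside other genes and are no independent evidence. The log2 ratio of Acta1 to Myh7 was 0.41 ± 0.311 in males and -0.45 ± 0.397 in females, a difference of 0.86 (exact two-sided permutation p = 0.029, adjusted p = 0.040 over the 7 ratios of Acta1). The differences for Xirp1 (0.85), Nppa (1.42), Myl4 (1.31) and Myl7 (1.44) had the same p, and without the atrial-poor male replicate 4 those of the last 3 were 0.81, 0.83 and 0.94. The ratio to Ankrd1 differed by 0.14 (exact permutation p = 0.51, adjusted p = 0.51) and that to Nppb by 0.79 (exact permutation p = 0.057, adjusted p = 0.067).

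Skeletal muscle genes were scarce. Of 10 skeletal muscle markers, 6 were tested, and 1 was higher in males. This was Myot, the Z-disc protein myotilin (35.6 ± 3.58 CPM in males, 24.9 ± 3.32 CPM in females, log2 fold change 0.52, edgeR adjusted p = 0.0131), called in 8 of 8 fits with 1 library left out but not without male replicates 1 and 4 together (0.0508). Of the 6, 4 had positive log2 fold changes, and the median was 0.20. The fast myosin heavy chain genes Myh1, Myh2 and Myh4, which define fast skeletal fibres, each stayed at or below 0.218 CPM in every library, and the fast troponin genes were low and ran in opposite directions. Tnnt3 was at 0.477 ± 0.135 CPM in males and 0.777 ± 0.187 CPM in females (edgeR adjusted p = 0.154), and Tnni2 at 3.34 ± 0.486 CPM in males and 2.43 ± 0.168 CPM in females, with no overlap (log2 fold change 0.46, edgeR adjusted p = 0.0731). The list summed to 39.8 to 45.3 CPM in males and 26.3 to 32.98 CPM in females, most of it Myot, while Acta1 was at 239 CPM or more throughout.

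Among smooth muscle markers, Acta2 was lower in males while none of the 12 genes listed was called. The median log2 fold change of the list was -0.03, with 8 negative and 4 positive values. Smooth muscle myosin Myh11 stood at 49.6 ± 1.34 CPM in males and 55.3 ± 10.1 CPM in females (-0.16, edgeR adjusted p = 0.43). Transgelin, Tagln, an actin-binding protein gene, was at 11.1 ± 0.852 CPM in males and 13.9 ± 2.25 CPM in females (-0.32, edgeR adjusted p = 0.12). Calponin, Cnn1 (-0.51, edgeR adjusted p = 0.26), Tpm2 (-0.22) and Myl9 (-0.18) were also negative, and the desmin gene Des, abundant in cardiomyocytes, was positive (0.14, edgeR adjusted p = 0.074). Summed, the list lay at 7232 to 7370 CPM in males and 6892 to 7107 CPM in females, dominated by Des and Pln of cardiomyocytes.

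Ratios of Acta2 to each marker within a library were likewise added after the values were seen. The difference was negative for 11 of the 12, and for 6 the sexes did not overlap (exact two-sided permutation p = 0.029). Adjusted over the 12 ratios of Acta2, p was 0.057 and none passed the threshold, and over these and the 7 of Acta1 together it was 0.049. The 6 were Smtn (-0.45), Mylk (-0.49), Synpo2 (-0.34), Des (-0.53), Pln (-0.45) and Cald1 (-0.38), of which several are also expressed outside smooth muscle. Against Myh11 the difference was -0.26 (exact permutation p = 0.17), against Tagln -0.09 (0.63) and against Cnn1 0.05 (0.89), so a change of Acta2 relative to these contractile markers was not detectable.

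**Figure D5:**
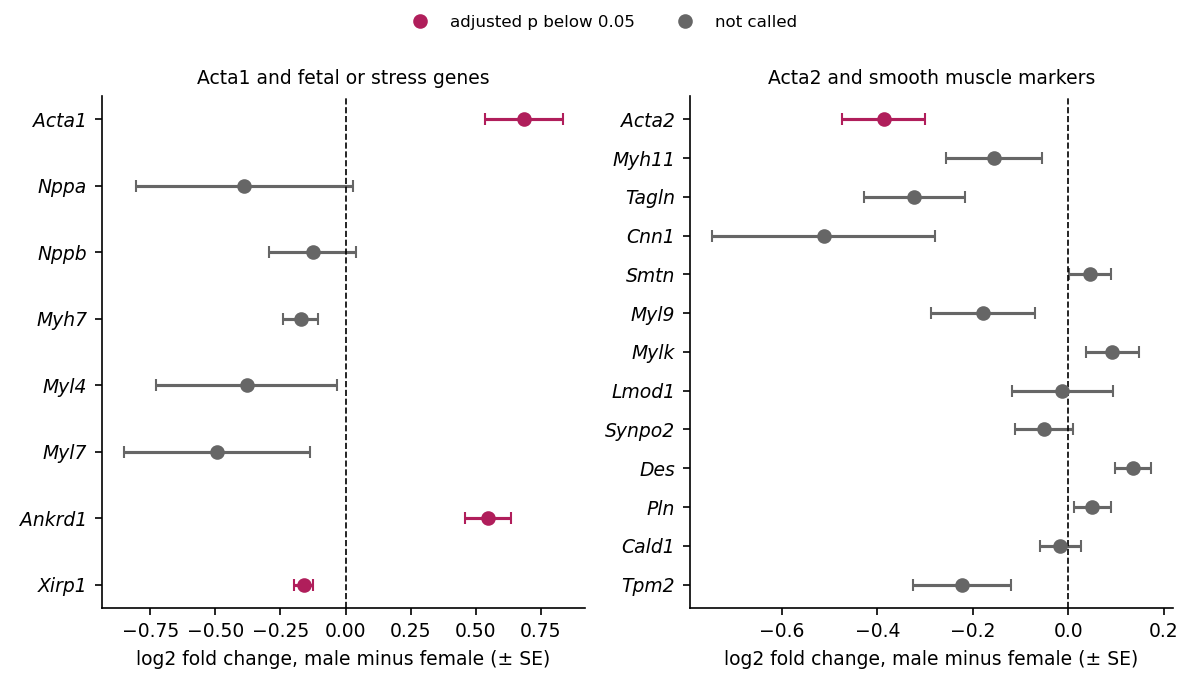
Log2 fold change, male minus female, with its SE, of Acta1 beside 7 fetal and stress genes (left) and of Acta2 beside 12 smooth muscle markers (right). Acta1 (0.69) and Ankrd1 (0.55) lie right of 0 and the other 6 genes left of it, and among the smooth muscle genes Acta2 (-0.39) alone was called.

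Markers of other cell types gave mixed values, among them those of pericytes and myofibroblasts, which Acta2 also marks. Of 8 pericyte markers, 2 were called, both higher in males, while 5 of the 8 had negative log2 fold changes and the median was -0.07. The called genes were Rgs5, a regulator of G protein signalling (447 ± 11.03 CPM in males, 396 ± 4.33 CPM in females, 0.18, edgeR adjusted p = 0.017), and the vitronectin gene Vtn (0.17, edgeR adjusted p = 0.0429). Pdgfrb, a growth factor receptor of pericytes (71.9 ± 2.16 CPM in males, 79.8 ± 5.41 CPM in females, -0.15, edgeR adjusted p = 0.116), and Notch3 (50.9 ± 2.29 CPM in males, 57.5 ± 3.33 CPM in females, -0.18, edgeR adjusted p = 0.0722) did not overlap between the sexes, with males lower, and were not called. Cspg4 (-0.18) and Mcam (-0.13) were also negative. The call of Vtn was lost in all 8 fits with 1 library left out, with edgeR adjusted p of up to 0.126 without male replicate 3, and Rgs5 held in 7 (0.0588 without male replicate 3). Of 11 fibroblast and myofibroblast markers, 10 were tested, 3 were lower in males and none higher. Lumican, Lum, was at 44.7 ± 4.35 CPM in males and 70.8 ± 3.18 CPM in females (-0.66, edgeR adjusted p = 0.000285), and the collagen gene Col3a1 at 307 ± 18.2 CPM in males and 390 ± 17.9 CPM in females (-0.35, edgeR adjusted p = 0.00404). The third was fibronectin, Fn1 (-0.47, edgeR adjusted p = 0.024), named after its values were seen. Postn (-0.18, edgeR adjusted p = 0.163) overlapped between the sexes and was not called, and Cthrc1, at 0.328 CPM or less, was not tested. None of the 10 had a positive log2 fold change. The summed level of this list ran from 1153 to 1310 CPM in males and from 1382 to 1469 CPM in females. It was lower in males, as was Acta2. Whether the sum followed Acta2 from library to library, and its part in the Acta2 result, were not tested. Of 10 endothelial markers, 1 was higher in males, the receptor gene Tie1 (0.20, edgeR adjusted p = 0.045, 0.118 without male replicate 3, held in 1 of 8 fits with 1 library left out). In that list 5 of 10 were positive, the median was -0.01, and Kdr (-0.26, edgeR adjusted p = 0.0618) and Tek (-0.11, edgeR adjusted p = 0.161) did not overlap between the sexes, with males lower. Of 10 leukocyte markers, 1 was called, S100a9 of neutrophils, at 0.280 ± 0.138 CPM in males and 1.36 ± 0.510 CPM in females (-2.27, edgeR adjusted p = 0.00632). The list's median was 0.23 with 7 of 10 positive, among them Csf1r of macrophages (0.23, edgeR adjusted p = 0.0848, no overlap) and Cd74 (0.49, edgeR adjusted p = 0.0782), neither called. All 8 adipocyte markers were lower in males, among them Adrb3 (-3.29) and Retn (-2.18). None of 6 red cell or 3 tested lung markers was called, with the smallest p for Slc4a1 (-0.27, edgeR adjusted p = 0.83) and Scgb1a1 (edgeR adjusted p = 0.16).

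Genes of the machinery that builds and holds actin filaments are given by list, beside 3.79% called among all genes tested. Of 14 genes for monomer binding and filament turnover, none was called, and Twf2, a monomer-binding twinfilin gene, had the smallest p (0.19, edgeR adjusted p = 0.091). Of 21 genes for nucleation, elongation and branching, 1 was higher in males, Arpc5l, a subunit gene of the branching Arp2/3 complex (83.1 ± 1.92 CPM in males, 73.3 ± 3.17 CPM in females, 0.18, edgeR adjusted p = 0.027). Of 15 genes for capping and length control, Tmod4, a tropomodulin that caps the pointed end (0.24, edgeR adjusted p = 0.048), was higher and Xirp1 lower in males. The calls of Arpc5l and Tmod4 held in 3 and 1 of 8 fits with 1 library left out, with adjusted p of up to 0.087 without male replicate 3 and 0.124 without female replicate 3. None of 23 crosslinking and anchoring genes (smallest p for Tagln, given above), 18 folding and modification genes (Mical1, -0.19, edgeR adjusted p = 0.19) or 7 tested actin-related genes (Actr1a, 0.07, edgeR adjusted p = 0.27) was called, and none of the 12 cardiomyocyte markers (Myl3, 0.14, edgeR adjusted p = 0.0965). The median log2 fold changes of these 7 lists lay between -0.0021 and 0.07, beside -0.00074 over all genes.

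The transcription factor and coactivators that control actin genes were not called. Of 9 genes in this list, 1 was higher in males, the cardiac target Ankrd1 given above. Srf, the serum response factor gene, stood at 148, 153, 145 and 139 CPM in males, against 153, 145, 154 and 152 CPM in females (log2 fold change -0.05, edgeR adjusted p = 0.56). Its muscle coactivator Myocd was at 43.1 ± 2.06 CPM in males and 47.4 ± 5.68 CPM in females (-0.14, edgeR adjusted p = 0.34). The actin-sensing coactivators Mrtfa (0.12, edgeR adjusted p = 0.46) and Mrtfb (0.07, edgeR adjusted p = 0.72) overlapped between the sexes. Over all 18 lists, 20 of 193 distinct genes tested were called, 7 higher and 13 lower in males. Of the 13, 8 were adipocyte markers, and the share called over all genes tested was 3.79%. The lists were chosen with earlier results of these data known.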

How the data were processed

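The authors deposited raw counts per gene. The submitters' processing notes list featureCounts (Subread 1.5.2), STAR 2.5.2b and Trimmomatic 0.36 as tools and mm10, that is GRCm38, as build. The strand setting, the annotation version and the treatment of reads with several matches are not given in the sources used here. The deposited tables of the 8 single samples held the same counts and gave the exon length of each gene in bases. The authors' deposited normalized signal holds 16160 genes and equals the count divided by 1 size factor per library. Multiplied back, 100% of its values came out whole within 0.01, and edgeR on those reads called 604 genes.

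Low genes were removed by edgeR's filterByExpr, at a minimum count of 10 and total of 15. TMM scaling and the edgeR 4.0.16 quasi-likelihood test (R 4.3.3) followed, for male minus female, with Benjamini-Hochberg adjustment. Each SE was taken as the size of the log2 fold change over the root of its F statistic. Shares and ratios used counts per exon length and exact permutation tests (SciPy 1.17.1), and coding sequences were aligned with Biopython 1.88. The procedure was tested on simulated data. One count was worth 0.0212 to 0.0305 CPM. The members and the 18 gene lists were chosen with earlier results of these data known. The genes named are the 6 members, up to 2 called genes of each list and direction with the smallest p or else the gene with the smallest p, and the 2 genes most like each member, of which 1 is not reported here, and any others were chosen after their values were seen. Alternatives were other scalings (DESeq2 size factors, upper quartile), filters, DESeq2 1.42.0, limma 3.58.1 (voom, and log2 of the normalized signal plus 1), removal of mitochondrial genes, the replicate number as a block, and each library left out. Other lengths were tried for shares and ratios.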

Additional observations from a re-analysis of the deposited data

Results flagged for a closer look

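Among 24 groups of 4 libraries examined, the CPM and the share of 6 genes in each sex, 2 held a library far from the other 3, and chance flags about 1 in 20 groups. Actb was at 413.2 CPM in male replicate 1, against 312.0 to 322.5 CPM in the other males. The share of Actg1 in the actin level per length was 1.219% in female replicate 3, against 1.049% to 1.075% in the other females.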

How the results depend on the processing

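Acta1 and Acta2 kept their direction under every alternative run, and both were called in all that did not leave out 1 library, apart from Acta1 with the replicate number as a block (log2 fold change 0.69, edgeR adjusted p = 0.0575), where 1 actin was called. With 1 library left out, 0 to 2 actins were called, with log2 fold changes of 0.57 to 0.81 for Acta1, -0.46 to -0.29 for Acta2, -0.0596 to 0.0381 for Actc1, -0.0531 to 0.0923 for Actb and -0.30 to 0.11 for Actg2. The sign of Actc1 turned without a filter (0.0033) and without male replicates 1 and 4 together (0.0828), an alternative chosen after seeing the data, where that of Actb was -0.0599. The cause was not tested. Genes called in all numbered 613, 964 with DESeq2, 217 without male replicates 1 and 4 and 315 to 490 with 1 library left out, with 315 when male replicate 3 was missing, 354 for female replicate 2 and 379 for female replicate 3. The upper quartile split was 304 higher and 307 lower. With 1 library left out, the difference in share ran from -0.145 to 0.185 percentage points for Actb and -0.00292 to 0.00070 for Actg2, and the log2 ratio of cytoplasmic to sarcomeric actins from -0.157 to 0.0576. Replicate numbers did not pair the libraries (correlations of deviations from -0.047 to 0.054, and 0 of 8 libraries most like their own number). The block gave 427 calls and lost, of the list genes named, Arpc5l, Tmod4, Xirp1, Rgs5, Vtn and Tie1. Leaving out male replicates 1 and 4 together lost Arpc5l, Tmod4, Xirp1, Vtn, Tie1 and Myot, upper quartile scaling lost Tmod4, and no filter lost Vtn. Under the block, and with 1 library left out, shares and ratios cannot pass the threshold.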
